A study of Mus musculus with 23 samples.

Results

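The genes described here are the collagens of the mouse genome other than the cartilage collagens Col2a1, Col9a1, Col9a2, Col9a3, Col11a1 and Col11a2, measured on arrays of embryonic lacrimal gland (LG), harderian gland (HG) and eyelid and of the adult glands. Every RefSeq gene symbol of the form Col, number, a, number was taken, apart from those 6, which gave 38 genes. A probe was matched for 37 of them (Col12a1 had none), and 34 had a probe bright enough to be tested, among 16324 genes tested in all. Col10a1, Col19a1 and Col28a1 were not well above background on any of the 23 arrays and have no test.

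At embryonic day 16.5 (E16.5), epithelium and mesenchyme had been separated from each of the LG, the HG and the eyelid, the eyelid with its ocular conjunctiva, and each of these 6 groups had 3 arrays. Whole LG (2 arrays) and whole HG (3 arrays) came from mice aged 7 weeks. All samples carried the strain label B6/CL, no genetic alteration or treatment was named, and total RNA was labelled with Cy3. The labels do not say whether replicates came from separate animals or pools, so the p-values measure the spread between these arrays.

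Collagens are secreted or membrane-bound trimers whose chains wind into a triple helix. Fibrillar collagens (types I, III and V among these genes) bear load in connective tissue, type IV forms the network of the basement membrane under every epithelium, type VI forms beaded filaments, type VII forms the anchoring fibrils and type XVII is the hemidesmosome collagen that holds surface epithelium to its base. Branching glands such as the LG grow by pushing epithelium into mesenchyme across such a basement membrane.

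Levels below are log2 intensity relative to the array's own 75th percentile, so 0 is the brightness of the probe at that percentile, and levels of different genes are not comparable because they come from different probes. Differences are log2 values with the standard error (SE) of a limma fit over all 8 groups, group levels are means with SD, and the threshold was a Benjamini-Hochberg adjusted p of 0.05 over all 16324 genes. A gene is called not well above background in a group where its probe did not pass the scanner software's flag. Where the dim group lies there on every array, the fold is given as a bound.

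The arrays had 42.4 to 64.6 percent of their spots well above background and no saturated spot. The lowest correlation between replicates was 0.985 for embryonic samples, 0.971 for adult LG and 0.959 for adult HG. The adult LG arrays were the dimmest, with a 75th percentile at 194 and 139 intensity units against 313 to 857 on the others, so a probe at background has a higher scaled level there. Tissue identity followed the labels: summed markers of the lacrimal acinus stood at 11.47 to 11.83 in adult LG and 3.67 to 4.83 in adult HG, and those of a lipid-secreting gland at 4.16 to 4.22 and 10.49 to 11.28. A list of 12 mesenchymal markers without collagens stood at 6.60 to 7.56 in the mesenchymal arrays, 2.63 to 3.73 in gland epithelium, 4.70 to 5.03 in eyelid epithelium, 2.99 to 3.29 in adult LG and 4.05 to 5.37 in adult HG. The eyelid epithelium sum was led by Thy1, at 4.58 there against -1.22 in LG and 0.47 in HG epithelium. Tested gene by gene, 5 of 11 such markers were higher and 2 lower in HG than in eyelid epithelium, and 2 were higher and 3 lower in LG epithelium. Epithelial markers summed to 6.49 to 7.76 in eyelid mesenchyme against 2.50 to 4.54 in gland mesenchyme.

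**Figure D1:**
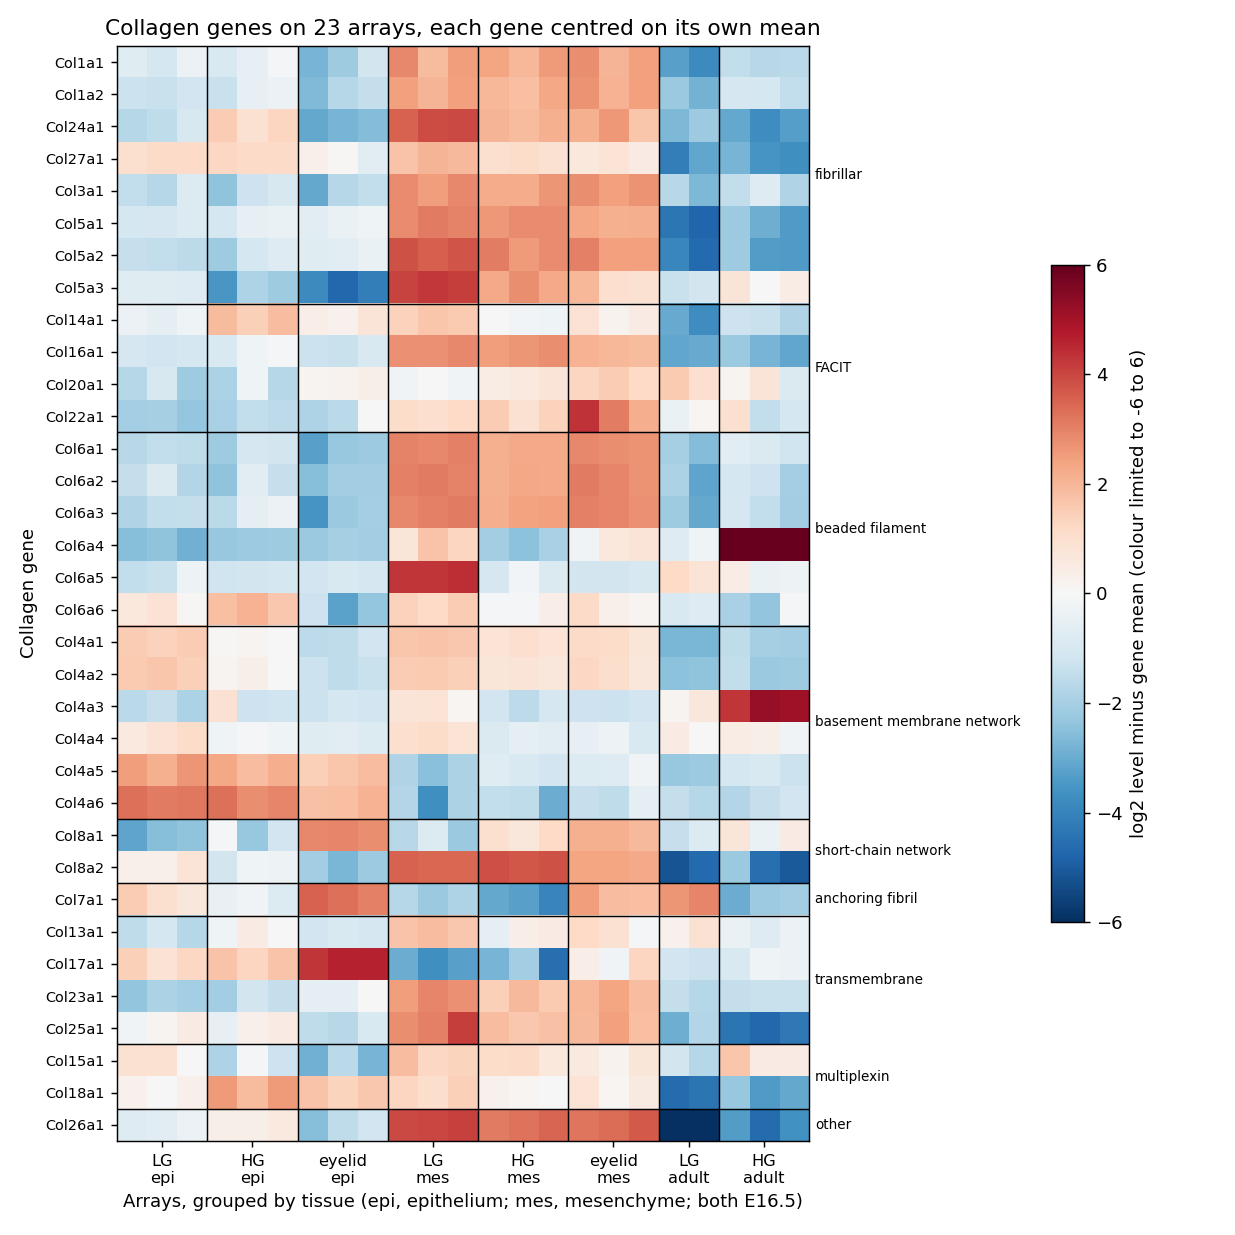
Levels of the tested collagen genes (one line per gene, grouped by role) in all 23 arrays (columns, grouped by tissue and compartment). Colours show log2 intensity relative to the array's 75th percentile, minus the gene's own mean over the arrays, with the colour range limited at both ends. Most fibrillar genes and Col6a1, Col6a2 and Col6a3 are high in the mesenchymal columns, and Col4a5, Col4a6 and Col17a1 in the epithelial columns. Col6a4 is highest in adult HG, where its level before centring was 2.63 to 3.92.

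The first comparison set epithelium against mesenchyme. Most collagens lay lower in the epithelium. Averaged over the 3 tissues, 25 of 34 were lower (73.5 percent, against 32 percent of all genes tested) and 5 were higher (14.7 percent, against 38.7 percent). The median collagen difference was -2.04, against 0.09 over all genes. Within the LG, 25 were lower (73.5 against 26.5 percent of all genes) and 4 higher (11.8 against 32.1 percent). The HG had 21 lower (61.8 against 28.1 percent) and 8 higher (23.5 against 29.8 percent), and the eyelid 24 lower (70.6 against 25.5 percent) and 5 higher (14.7 against 25.7 percent). The medians in the LG, HG and eyelid were -3.15, -1.77 and -2.60, beside 0.11, 0.03 and 0.05 over all genes.

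In the mean over tissues, the collagens that lay furthest below mesenchyme were Col5a3 (-5.12 ± 0.21), Col6a1 (-4.50), Col6a3 (-4.43), Col6a2 (-4.42), Col3a1 (-4.24) and Col26a1 (-4.21). The 5 that rose in epithelium were Col4a6 (4.56 ± 0.25), Col17a1 (4.40), Col4a5 (3.26 ± 0.12), Col7a1 (2.38) and Col18a1 (0.73). Apart from Col18a1, these genes were higher in the epithelium of each tissue. The size of the compartment difference depended on the tissue for 24 of the 34 by a moderated F test in limma, a share of 70.6 percent against 42.3 percent of all genes. The 24 include Col6a5, Col13a1 and Col4a3, each tested because its probe was bright enough in 1 group alone.

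**Figure D2:**
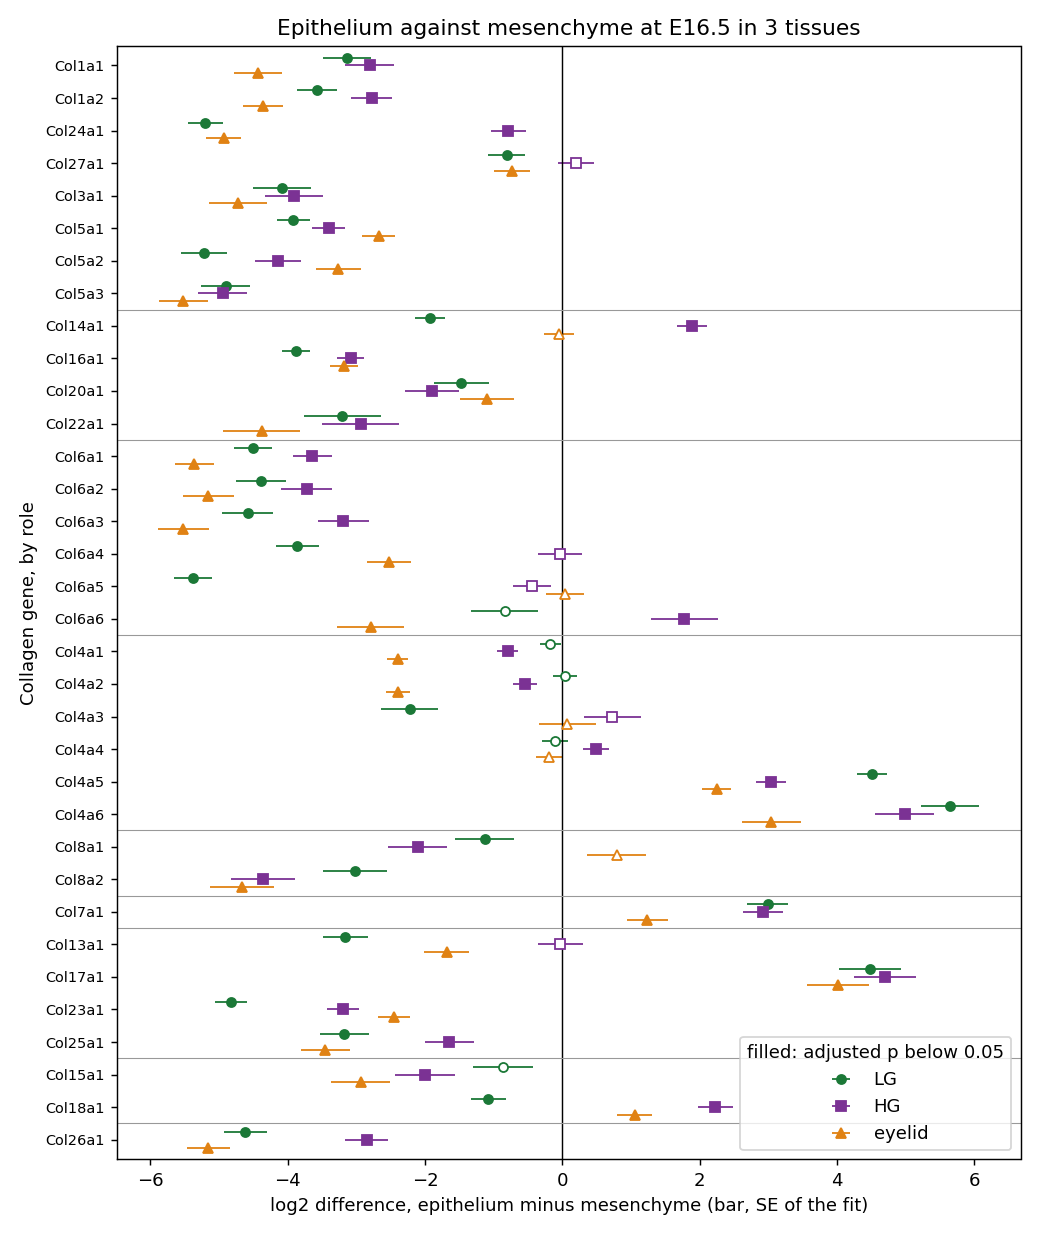
Epithelium minus mesenchyme for the 34 tested collagens in the LG, HG and eyelid, in log2 units. Points are fitted differences, bars are SE, and filled points have a limma adjusted p under 0.05. Col14a1 and Col18a1 lie below 0 in the LG and above 0 in the HG.

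The 8 fibrillar genes were all lower in epithelium of the LG and of the eyelid, and 7 of 8 in the HG, where Col27a1 differed by 0.20 ± 0.26 (adjusted p = 0.541). Their median differences were -4.00 in the LG, -3.10 in the HG and -4.40 in the eyelid. Both chains of type I collagen, the main fibril of connective tissue, moved alike. Col1a1 stood at 4.68, 4.34 and 5.06 in LG epithelium and at 8.27, 7.31 and 7.90 in LG mesenchyme, with no overlap (-3.13 ± 0.35, adjusted p = 4.21e-07). Col1a2 differed by -3.58 ± 0.29 there. In the HG the pair differed by -2.81 and -2.78, and in the eyelid by -4.43 and -4.36.

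Type III collagen, whose only chain is Col3a1, is laid down with type I in soft tissue, and its gene lies next to Col5a2 on chromosome 1. In the LG, Col3a1 differed by -4.09 ± 0.42 between epithelium and mesenchyme and Col5a2 by -5.22 ± 0.33. In the HG their differences were -3.91 and -4.13 and in the eyelid -4.73 and -3.26. Type V chains, which sit inside type I fibrils and limit their width, included the largest fibrillar difference in the HG, the eyelid and the mean over tissues, that of Col5a3. It was at 0.73, 0.73 and 0.68 in LG epithelium and at 5.51, 5.72 and 5.60 in LG mesenchyme. That difference was -4.90 ± 0.36 in the LG, -4.95 in the HG and -5.52 in the eyelid. Its partner chain Col5a1 differed by -3.92, -3.40 and -2.67.

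Col24a1, a minor fibrillar chain best known from bone, had a smaller compartment difference in the HG than in the LG and the eyelid. In mesenchyme it stood at 1.01, 1.40 and 1.42 in the LG, -0.48, -0.61 and -0.38 in the HG and -0.40, 0.08 and -0.86 in the eyelid. In epithelium it was at -4.24, -4.06 and -3.47 in the LG and at -1.0, -1.61 and -1.21 in the HG, and not well above background in the eyelid. The LG compartments were therefore separated by -5.20 ± 0.26 (adjusted p = 2.86e-11) and those of the HG by -0.79 ± 0.26 (adjusted p = 0.0132). In the eyelid the gene was at least 18.8-fold lower in epithelium. The compartments did not overlap in any of the 3 tissues, and within the 3 slides the LG difference was -5.25, -5.46 and -4.89 and the HG difference -0.52, -1.0 and -0.83.

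Among the fibril-associated collagens with interrupted helices (FACIT), Col16a1 was lower in epithelium, with differences of -3.87, -3.08 and -3.18 in the LG, HG and eyelid, and so was Col20a1, with -1.47, -1.89 and -1.09. The least bright of the 3 Col16a1 probes gave -2.34 in the LG and -1.88 in the HG. Col22a1, a collagen of the muscle-tendon junction, was not well above background in any embryonic epithelium, and in the eyelid it was at least 6.93-fold lower there than in mesenchyme. Skeletal muscle markers summed to 5.80 to 6.72 in eyelid mesenchyme, and their part in the Col22a1 level was not tested.

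Col14a1, which binds the surface of type I fibrils, went in opposite directions in the 2 glands. LG epithelium had 3.62, 3.43 and 3.75 and LG mesenchyme 5.38, 5.63 and 5.58. In the HG the order was turned, with 5.89, 5.41 and 5.85 in epithelium and 3.95, 3.81 and 3.73 in mesenchyme. Neither pair overlapped. The differences were -1.93 ± 0.22 in the LG (adjusted p = 4e-07) and 1.89 ± 0.22 in the HG (adjusted p = 5.71e-07), and within the 3 slides they were -1.76, -2.20 and -1.83 against 1.95, 1.60 and 2.12. In the eyelid the difference was -0.05 (95% interval -0.50 to 0.40). A further Col14a1 probe gave -1.31, 2.16 and 0.15 in the LG, HG and eyelid.

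Col18a1, a basement membrane collagen whose C-terminal fragment is endostatin, showed the same turn. It stood at 3.62, 3.35 and 3.67 in LG epithelium below 4.63, 4.44 and 4.79 in LG mesenchyme, and at 5.94, 5.25 and 5.94 in HG epithelium above 3.61, 3.50 and 3.33 in HG mesenchyme. The LG difference was -1.08 ± 0.25 (adjusted p = 0.0013), the HG difference 2.23 ± 0.25 (adjusted p = 5.3e-07) and the eyelid difference 1.05 ± 0.25 (adjusted p = 0.00186). The other probe of the gene gave -0.70, 2.31 and 1.05. The moderated F was 78.1 for Col14a1 and 43.82 for Col18a1. Col15a1, the other collagen of this class, was lower in epithelium of the HG (-2.0) and the eyelid (at least 4.09-fold) and differed by -0.86 in the LG (adjusted p = 0.1).

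**Figure D3:**
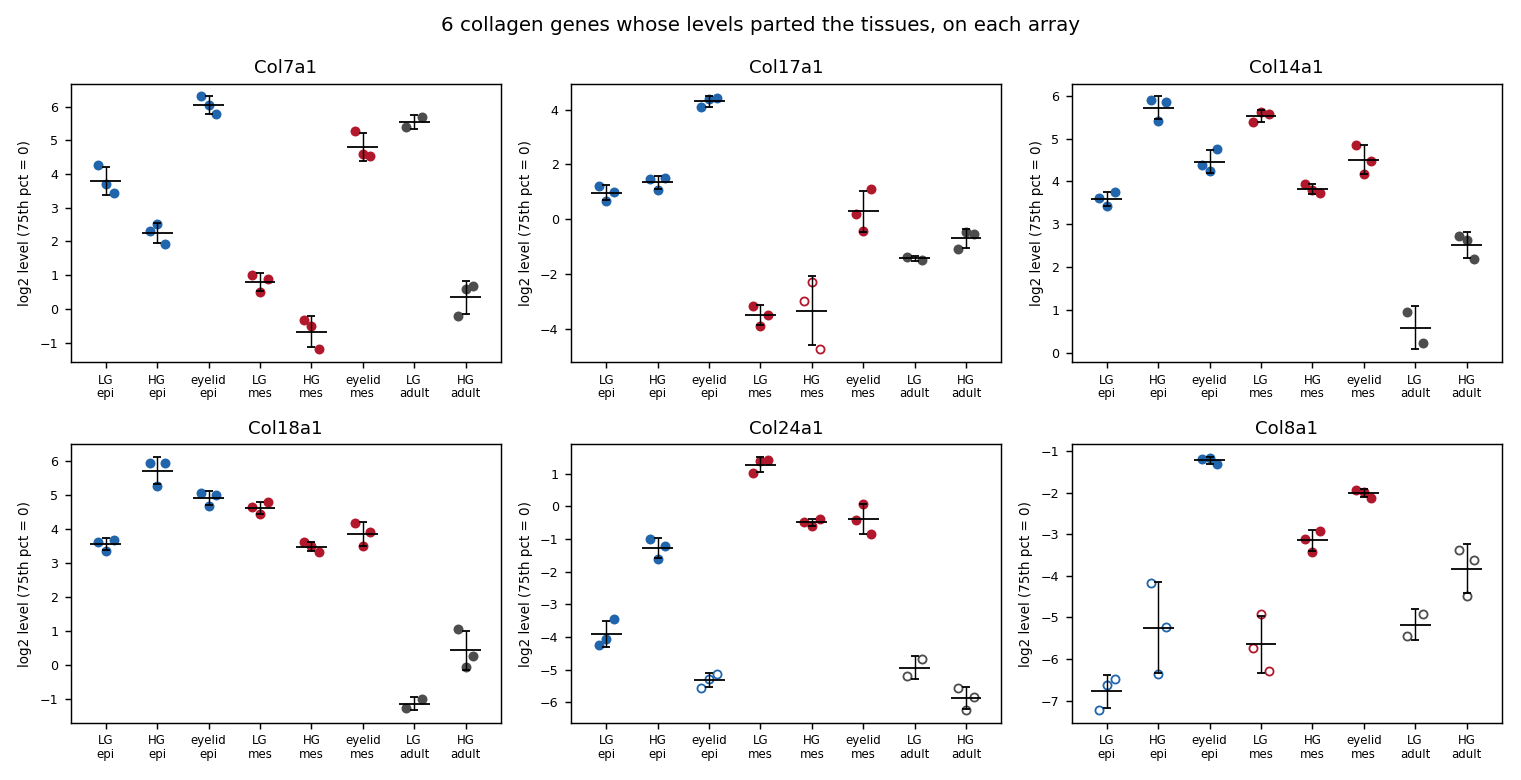
Level of Col7a1, Col17a1, Col14a1, Col18a1, Col24a1 and Col8a1 on each array by group, as log2 intensity relative to the array's 75th percentile. Points are arrays, filled where all arrays of a group had the probe well above background, lines are group means and bars are SD. Col7a1 is high in all eyelid arrays and in adult LG (5.40 and 5.68).

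Type VI collagen is built from Col6a1, Col6a2 and a further chain, either Col6a3 or one of Col6a4, Col6a5 and Col6a6. The 3 classical genes were lower in every embryonic epithelium, with differences of -4.51, -4.39 and -4.58 in the LG, -3.64, -3.72 and -3.19 in the HG and -5.36, -5.16 and -5.52 in the eyelid. Col6a1 stood at 2.95, 3.11 and 3.07 in LG epithelium and 7.57, 7.47 and 7.60 in LG mesenchyme. The alternative chains departed from this, by their representative probes each in its own group. Their genes stand in a row on chromosome 9, in the order Col6a6, Col6a5, Col6a4.

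By their representative probes these 3 neighbours were each highest in a different group, though a second Col6a6 probe differed, as given below. The 250 bases before each RefSeq start site are therefore shown, from the minus strand of GRCm38.p6: Col6a6 at chr9:105828086-105828335, Col6a5 at chr9:105960644-105960893 and Col6a4 at chr9:106096692-106096941. Capitals mark matches, on either strand, to the GC box GGGCGG, the CCAAT box or the TATA box TATAAA, which 32.7, 33.8 and 12.4 percent of 32851 RefSeq promoter windows hold. Both Col6a6 and Col6a4 have 2 GC boxes and Col6a5 has 1, and the Col6a4 window alone of these 3 has a CCAAT box.
Col6a6: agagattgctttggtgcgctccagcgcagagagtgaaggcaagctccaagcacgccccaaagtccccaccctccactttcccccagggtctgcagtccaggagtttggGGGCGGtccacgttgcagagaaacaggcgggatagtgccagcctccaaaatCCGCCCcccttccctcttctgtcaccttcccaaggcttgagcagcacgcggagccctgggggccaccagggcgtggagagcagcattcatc
Col6a5: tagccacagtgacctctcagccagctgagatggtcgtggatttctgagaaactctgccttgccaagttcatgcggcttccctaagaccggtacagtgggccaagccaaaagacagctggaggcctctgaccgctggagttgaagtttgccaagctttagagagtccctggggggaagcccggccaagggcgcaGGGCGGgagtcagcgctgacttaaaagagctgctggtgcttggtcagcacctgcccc
Col6a4: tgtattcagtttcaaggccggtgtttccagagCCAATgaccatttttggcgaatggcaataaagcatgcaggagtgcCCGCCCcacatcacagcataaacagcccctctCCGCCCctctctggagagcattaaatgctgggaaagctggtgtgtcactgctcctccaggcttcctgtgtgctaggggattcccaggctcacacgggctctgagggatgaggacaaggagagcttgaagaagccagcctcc

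Col6a5 was well above background only in LG mesenchyme, at -1.20, -1.21 and -1.09, and on no array of the other 7 groups. It was at least 15.7-fold lower in LG epithelium (adjusted p = 4.16e-11), at least 11.7-fold higher in LG than in HG mesenchyme (adjusted p = 9e-10) and at least 11.6-fold higher than in eyelid mesenchyme. Within the 3 slides, LG minus HG mesenchyme was 5.29, 4.44 and 5.29. A second Col6a5 probe was on no array well above background, so this pattern rests on 1 probe. Col6a5 passed the filter on dim probes through LG mesenchyme alone, as did Col13a1, and Col4a3 through adult HG alone, so they had to differ between some groups. The counts of calls for comparisons with these groups include them.

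Col6a4, which is intact in mouse, had its embryonic signal in LG mesenchyme at -3.94, -2.97 and -3.38 and on 2 of 3 eyelid mesenchyme arrays, and was not well above background in any embryonic epithelium or in HG mesenchyme. In adult HG it rose to 2.63, 2.74 and 3.92. Adult HG was at least 225-fold above embryonic HG mesenchyme (adjusted p = 1.05e-14) and at least 227-fold above HG epithelium (adjusted p = 7.78e-15), while adult LG was not well above background and at least 70.1-fold below adult HG (adjusted p = 1.25e-12). The adult minus embryonic mesenchyme difference was 9.38, 9.87 and 10.56 within the 3 slides. A second, dimmer Col6a4 probe, well above background on 3 arrays only, gave 4.10 for the same comparison and -2.58 for adult LG against adult HG.

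By its representative probe, Col6a6 was highest in HG epithelium, at -0.91, -0.62 and -1.10, above HG mesenchyme at -2.83, -2.81 and -2.32 (1.78 ± 0.48, adjusted p = 0.00413). In the eyelid the order was opposite (-2.79 ± 0.48, with 1 epithelial array well above background), and in the LG the difference was -0.84 (adjusted p = 0.149). Its second probe gave -2.62 in the LG, 0.81 in the HG and -4.17 in the eyelid. That probe put LG mesenchyme above HG mesenchyme by 1.65, so its highest group was LG mesenchyme and not HG epithelium.

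**Figure D4:**
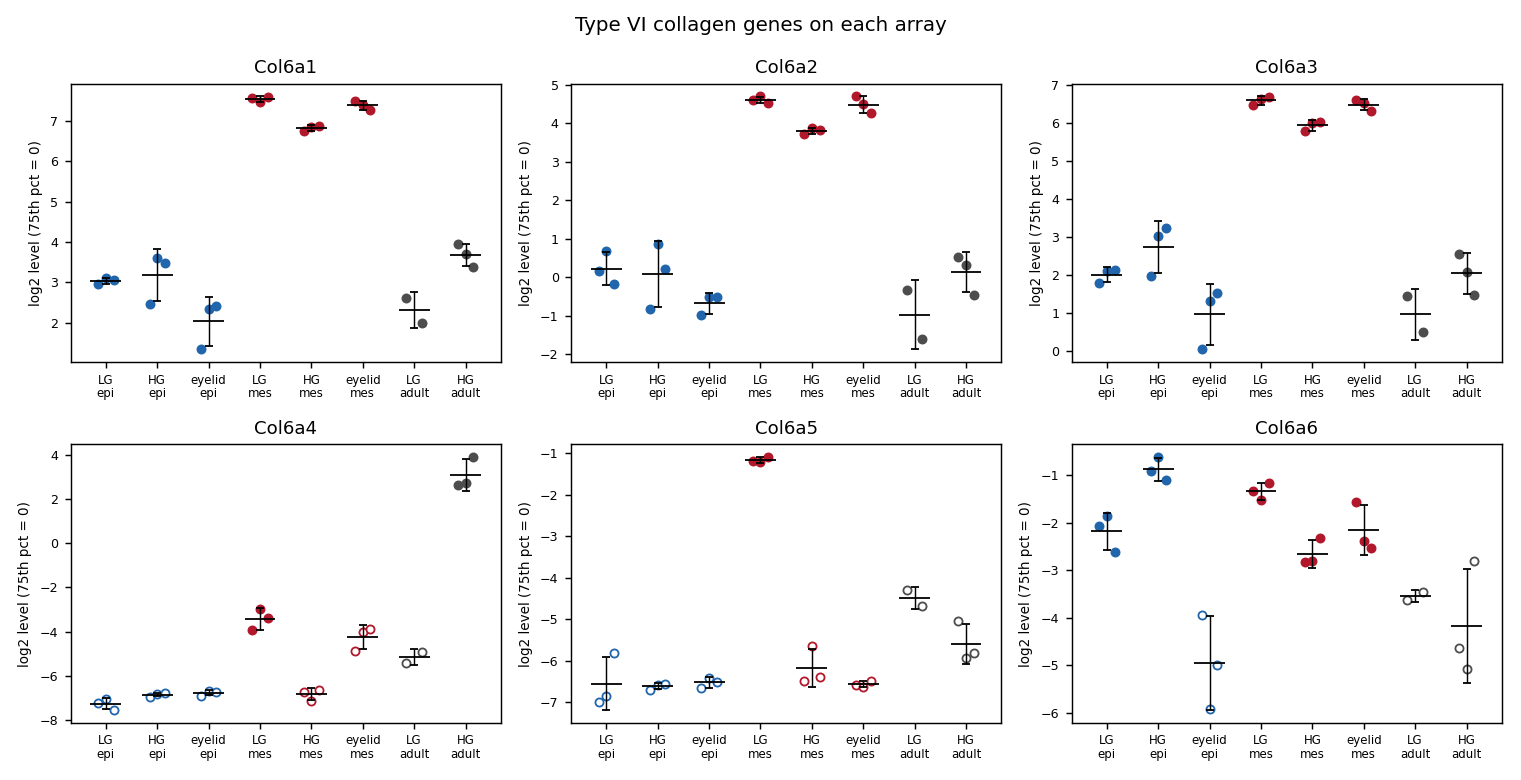
Level of the 6 type VI genes on each array by group, as log2 intensity relative to the array's 75th percentile. Points are arrays, filled where all arrays of a group had the probe well above background, lines are group means and bars are SD. Col6a5 is filled only in LG mesenchyme and Col6a4 is highest in adult HG.

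Type IV collagen genes lie in head-to-head pairs, and the 3 pairs behaved differently. Col4a1 and Col4a2 encode the chains of the ubiquitous network. Col4a1 stood at 4.79, 4.66 and 4.79 in LG epithelium and 4.90, 4.98 and 4.88 in LG mesenchyme, a difference of -0.18 (95% interval -0.50 to 0.15), and Col4a2 differed by 0.04 (-0.33 to 0.40). In the HG both were lower in epithelium (-0.80 ± 0.15 and -0.55 ± 0.17), and in the eyelid more so (-2.40 ± 0.15 and -2.39 ± 0.17), with Col4a1 at 1.69, 1.75 and 2.08 in epithelium against 4.39, 4.34 and 3.99 in mesenchyme. By the moderated F test the difference depended on tissue for both genes (F 55.56 and 52.65).

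Col4a5 and Col4a6, which supply the chains of a network found under skin and other surface epithelia, were the epithelial pair. Col4a5 stood at 3.48, 3.13 and 3.63 in LG epithelium, 3.29, 2.81 and 3.13 in HG epithelium and 2.38, 2.61 and 2.83 in eyelid epithelium. The mesenchymal arrays lay between -1.54 and 0.77 and did not overlap with these. The differences were 4.51 ± 0.22 in the LG (adjusted p = 2.46e-11), 3.03 in the HG and 2.25 in the eyelid. For Col4a6 they were 5.65 ± 0.43 (adjusted p = 2.76e-09), 4.99 and 3.04, but its other probe gave only 1.63, 1.19 and 0.43.

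The promoter windows of the 4 genes that were higher in epithelium of every tissue are shown because of that shared direction: Col4a5 at chrX:141475169-141475418 on the plus strand, Col4a6 at chrX:141474077-141474326 on the minus strand, Col7a1 at chr9:108953336-108953585 on the plus strand and Col17a1 at chr19:47692043-47692292 on the minus strand. Capitals mark the same 3 motifs. The start sites of Col4a5 and Col4a6 lie 1343 bases apart, facing away from each other. Both of these and Col7a1 have 1 GC box, while Col17a1 has none and has 2 TATA boxes. The AP-1 motif TGANTCA, which 6.75 percent of all windows hold, was searched too and has no match in these letters or in the 3 type VI windows.
Col4a5: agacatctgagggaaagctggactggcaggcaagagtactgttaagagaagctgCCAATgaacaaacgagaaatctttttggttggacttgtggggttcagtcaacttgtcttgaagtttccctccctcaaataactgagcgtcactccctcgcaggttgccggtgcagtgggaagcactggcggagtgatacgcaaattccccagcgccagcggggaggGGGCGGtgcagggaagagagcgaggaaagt
Col4a6: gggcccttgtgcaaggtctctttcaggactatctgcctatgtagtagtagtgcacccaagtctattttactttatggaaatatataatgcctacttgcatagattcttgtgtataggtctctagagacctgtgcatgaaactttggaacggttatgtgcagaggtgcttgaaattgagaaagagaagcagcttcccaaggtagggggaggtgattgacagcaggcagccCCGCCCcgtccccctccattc
Col7a1: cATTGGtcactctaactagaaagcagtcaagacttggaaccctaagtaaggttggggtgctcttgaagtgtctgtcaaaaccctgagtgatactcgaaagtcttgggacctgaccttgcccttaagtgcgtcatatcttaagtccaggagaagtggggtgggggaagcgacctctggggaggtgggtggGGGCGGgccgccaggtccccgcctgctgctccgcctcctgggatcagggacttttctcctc
Col17a1: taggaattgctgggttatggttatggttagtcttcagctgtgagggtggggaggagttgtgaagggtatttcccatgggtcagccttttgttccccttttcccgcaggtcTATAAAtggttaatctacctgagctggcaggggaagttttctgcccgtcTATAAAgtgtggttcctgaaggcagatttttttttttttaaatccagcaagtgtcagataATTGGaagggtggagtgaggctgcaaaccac

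Col4a3 and Col4a4, the partners of Col4a5 in the kidney filter, were dim in the embryo. Col4a4 was well above background in every group, at -1.94, -1.67 and -1.44 in LG epithelium and -1.55, -1.45 and -1.71 in LG mesenchyme. Its compartment difference passed the threshold in the HG (0.49 ± 0.19, adjusted p = 0.0331) and was -0.11 in the LG and -0.20 in the eyelid, neither called. Col4a3 was well above background on 1 embryonic array, of LG mesenchyme, but stood at -1.45, -0.53 and -0.65 in adult HG. That was at least 14.3-fold above HG mesenchyme (adjusted p = 2.08e-10), at least 14.4-fold above HG epithelium and at least 4.46-fold above adult LG (adjusted p = 1.98e-07). Since Col4a3 passed the filter on dim probes through adult HG alone, a difference from some group was fixed in advance. Within the 3 slides, adult HG minus HG mesenchyme was 5.45, 6.77 and 6.10. Its neighbour Col4a4 was higher in adult HG than in HG mesenchyme by 0.89 ± 0.19 and differed by 0.04 (95% interval -0.40 to 0.49) between adult LG and adult HG.

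**Figure D5:**
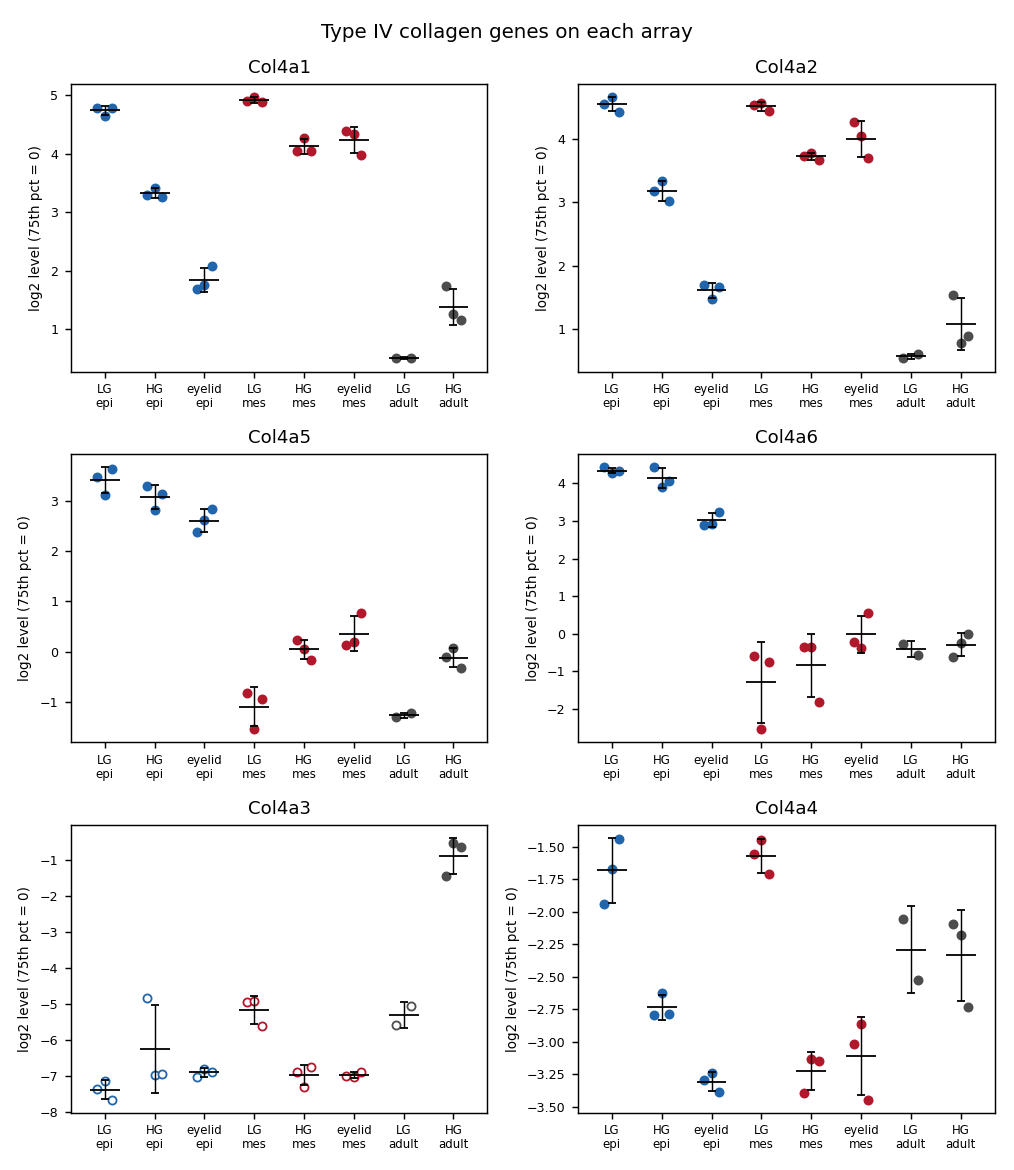
Level of the 6 type IV genes on each array by group, as log2 intensity relative to the array's 75th percentile. Points are arrays, filled where all arrays of a group had the probe well above background, lines are group means and bars are SD. Col4a5 and Col4a6 are high in the 9 embryonic epithelial arrays, and Col4a3 is filled only in adult HG.

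Col7a1, the anchoring fibril collagen, and Col17a1 were higher in epithelium of all 3 tissues. Col7a1 stood at 6.31, 6.04 and 5.78 in eyelid epithelium, 4.26, 3.70 and 3.43 in LG epithelium and 2.32, 2.52 and 1.92 in HG epithelium, in that order without overlap. Its differences from mesenchyme were 2.99 ± 0.29 in the LG, 2.93 in the HG and 1.24 in the eyelid. Eyelid mesenchyme itself was high, at 5.27, 4.60 and 4.54, against 1.02, 0.51 and 0.90 in LG and -0.32, -0.50 and -1.20 in HG mesenchyme.

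Col17a1 was highest in eyelid epithelium too, at 4.08, 4.41 and 4.41, and lower at 1.21, 0.67 and 1.01 in LG and 1.48, 1.06 and 1.49 in HG epithelium. Eyelid mesenchyme had 0.19, -0.42 and 1.09, against -3.17, -3.89 and -3.49 in LG mesenchyme. In that eyelid mesenchyme 8 of 12 epithelial markers were higher than in each gland mesenchyme, and epidermal markers summed to 4.55 to 6.76 against 10.19 to 10.73 in eyelid epithelium. Their part in the Col7a1 and Col17a1 levels of eyelid mesenchyme was not tested.

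Of the remaining transmembrane collagens, Col23a1 and Col25a1 were lower in epithelium of all 3 tissues. Col23a1 differed by -4.82 ± 0.23 in the LG, -3.19 in the HG and -2.45 in the eyelid, and Col25a1, which acts in the innervation of muscle, by -3.17, -1.64 and -3.45. All 4 Col25a1 probes gave lower values in epithelium, but they ranged from -1.64 to -3.76 in the HG. Col13a1, a collagen of the neuromuscular junction, was well above background on all 3 arrays of LG mesenchyme (-3.87, -3.77 and -3.98) and on 1 of eyelid mesenchyme. It was at least 2.41-fold lower in LG epithelium, while in the HG it was not well above background in either compartment and not called. For Col26a1, whose role is less well known, the differences were -4.61, -2.85 and -5.15.

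The short-chain collagens Col8a1 and Col8a2, which build the Descemet membrane of the cornea, diverged. Col8a2 was lower in epithelium, with differences of -3.02, -4.35 and -4.67 in the LG, HG and eyelid, and -2.17 by its other probe in the eyelid. Col8a1 was brightest in eyelid epithelium, at -1.19, -1.15 and -1.31, beside -1.94, -1.97 and -2.12 in eyelid mesenchyme. These values did not overlap, but the difference of 0.79 ± 0.43 missed the threshold (adjusted p = 0.135). Col8a1 was at least 15.2-fold lower in LG than in eyelid epithelium (adjusted p = 5.74e-09).

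The mesenchymes were then compared with each other. LG mesenchyme had higher collagen signal than HG mesenchyme: 15 of 34 were higher (44.1 against 6.46 percent of all genes) and 2 lower (5.88 against 7.85 percent), with a median of 0.79 against -0.03. The 15 include Col6a5 and Col13a1, which passed the filter on dim probes through LG mesenchyme alone. Beside Col6a5 and Col6a4 (at least 2.44-fold), the largest were Col24a1 (1.77), Col14a1 (1.70), Col5a3 (1.70) and Col4a4 (1.66). Col4a3 was called too, but it was well above background on 1 LG and no HG array and the call was lost with normexp background correction (adjusted p = 0.469), so no size is given. The 2 lower genes were Col8a1 (-2.51 ± 0.43) and Col4a5 (-1.14 ± 0.22). The main fibril genes did not pass the test: Col1a1 differed by 0.14 (adjusted p = 0.871), Col1a2 by 0.28 and Col3a1 by 0.37. Of 11 mesenchymal markers 1 was higher and 2 were lower, with a median of 0.55. Pigment cell markers summed to 1.55 to 1.73 in LG and 6.32 to 6.76 in HG mesenchyme. The part of mesenchymal or pigment cells in the collagen differences was not tested.

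Against eyelid mesenchyme, 16 collagens were higher in LG mesenchyme (47.1 against 15.5 percent of all genes) and 7 lower (20.6 against 15.7 percent). Col6a5, Col5a3 (2.84 ± 0.36), Col24a1 (1.67), Col4a4 (1.54) and Col27a1 (1.26) led the first group, which also held Col4a3, well above background on 1 LG and no eyelid array and not called with normexp background correction (adjusted p = 0.422). Col7a1 (-4.00 ± 0.29), Col17a1 (-3.80), Col8a1 (-3.64), Col22a1 (-2.12), Col20a1 (-1.49) and Col4a5 (-1.46) led the second, and Col4a6 completed it (-1.28, but 0.00 by its other probe). Col1a1, Col1a2, Col3a1 and Col6a1 to Col6a3 differed by -0.10 to 0.16 and were not called. With the replicate number as a block, Col6a4 was called as well (0.83, adjusted p = 0.0314 against 0.0561).

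HG and eyelid mesenchyme gave the fewest collagen calls of the 15 comparisons. Here 3 collagens were higher in HG (8.82 against 11.1 percent of all genes) and 5 lower (14.7 against 11.3 percent), shares near the background. Those lower in the HG were Col7a1 (-5.48 ± 0.29, adjusted p = 2.93e-10), Col17a1 (-3.64), Col22a1 (-1.92), Col14a1 (-0.68) and Col6a4 (at least 1.37-fold). Col8a2 (1.46), Col5a3 (1.14) and Col16a1 (0.65) were higher. The count of 8 fell to 3 without HG mesenchyme replicate 2 and to 5 without HG mesenchyme replicate 3 or any single array of eyelid mesenchyme, and was 14 when only these groups were fitted. Scaling to each array's median left 1 higher and 4 lower.

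Between LG and HG epithelium, 6 collagens were higher in the LG (17.6 against 2.96 percent of all genes) and 5 lower (14.7 against 3.39 percent), with a median of -0.25 against 0.00. LG epithelium had more Col5a3 (1.74), Col15a1 (1.65), Col7a1 (1.55), Col4a1 (1.41 ± 0.15), Col4a2 (1.37 ± 0.17) and Col4a4 (1.05). HG epithelium had more Col24a1 (-2.65 ± 0.26, adjusted p = 1.71e-06), Col18a1 (-2.16), Col14a1 (-2.12, adjusted p = 2.91e-06) and Col8a1 (-1.53, with 1 HG array well above background). Col13a1 (-1.50) was not well above background in either and has no measured difference. The calls of Col15a1 and Col8a1 were not stable: both were lost with normexp background correction (0.60 and -0.47), without slide 1 (1.11 and -0.76), with only these groups fitted and without replicate 1 or 2 of LG epithelium or 1 or 3 of HG epithelium, and Col8a1 also under quantile and median scaling, with no filter on dim probes and without LG epithelium replicate 3. Col5a3 was lost with only these groups fitted and Col13a1 with normexp. With the replicate number as a block Col26a1 was gained (-1.02, adjusted p = 0.037). In the same comparison 5 of 11 mesenchymal markers were lower in LG epithelium, and their part was not tested.

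LG epithelium against eyelid epithelium gave 16 higher (47.1 against 27.2 percent of all genes) and 8 lower (23.5 against 18.3 percent). HG against eyelid epithelium gave 20 higher (58.8 against 26.6 percent) and 5 lower (14.7 against 18 percent). The LG was higher in Col5a3 (3.46), Col15a1 (at least 4.43-fold), Col4a2 (2.94), Col4a1 (2.90), Col8a2 (2.80) and Col6a6 (2.77, with 1 eyelid array well above background). The HG was higher in Col6a6 (4.07), Col24a1 (at least 10.2-fold, adjusted p = 5.1e-10), Col26a1 (2.17), Col6a3 (1.78), Col8a2 (1.78) and Col5a3 (1.72). Both glands were lower than the eyelid in Col17a1 (-3.33 in the LG and -2.96 in the HG), Col7a1 (-2.25 and -3.79), Col8a1 (at least 15.2-fold in the LG and -4.03 in the HG), Col20a1 (-1.86 and -1.54) and Col23a1 (-1.73 and -1.16). For Col23a1 in the HG the other probes gave 0.16 and -0.56, and the call was lost with probes averaged (adjusted p = 0.115). The other probe of Col8a2 gave 1.23 for the LG and 0.45 for the HG against the eyelid. Col18a1 was lower in LG than in eyelid epithelium (-1.36) and higher in HG (0.80). These comparisons share the eyelid arrays. In HG against eyelid epithelium, 5 of 11 mesenchymal markers were higher and 2 lower (median 0.94), and 6 of 10 endothelial markers were higher and none lower (median 1.04). In LG against eyelid epithelium, 2 of 11 mesenchymal markers were higher and 3 lower, and 2 of 10 endothelial markers were higher and none lower. The part of such cells in the collagen differences was not tested.

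In the adult glands, whole tissue was measured, so fewer cells of a type and less RNA per cell cannot be told apart. Adult LG lay below adult HG for 18 collagens (52.9 against 33.2 percent of all genes) and above it for 6 (17.6 against 22.4 percent), with a median of -0.94 against -0.13. Only 2 of the 6, Col7a1 and Col20a1, were well above background in adult LG. Col6a5, Col13a1 and Col24a1 were not well above background in either gland and have no measured difference. The Col25a1 probe used was not well above background in either gland. Another of its 4 probes was well above background on 1 array of each gland, so its difference is uncertain. Counting only calls whose brighter group was well above background throughout left 2 higher and 17 lower, beside 17.8 and 32.1 percent of all genes under the same rule. With only the 2 adult groups fitted, 14 were called.

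Col7a1 was the clearest collagen of adult LG, at 5.40 and 5.68 against -0.21, 0.58 and 0.68 in adult HG (5.20 ± 0.33, adjusted p = 2.38e-10). The difference was 4.83 and 5.0 within slides 2 and 3. Col20a1 was higher by 1.27 ± 0.44 (adjusted p = 0.0211), and its other probe gave 2.11. On the other side stood Col6a4, Col4a3, Col26a1 (at least 4.16-fold), Col15a1 (at least 1.75-fold), Col1a1 (-1.95 ± 0.39), Col14a1 (-1.92) and Col5a1 (-1.71). Col1a1 stood at 2.12 and 1.56 in adult LG and 3.91, 3.70 and 3.76 in adult HG, without overlap. Mesenchymal markers moved the same way, with 8 of 11 lower in adult LG and a median of -1.41, as did endothelial markers (7 of 10 lower and 1 higher, median -2.04) and mural cell markers (6 of 7 lower, median -1.55). Pigment cell markers were lower too (4 of 5), and adult HG replicate 1 carried skeletal muscle markers at 5.52 against 1.81 and -0.94 in replicates 2 and 3. The part of any of these in the collagen differences was not tested.

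Compared with embryonic mesenchyme, most collagens were lower in the adult gland. In the LG, 26 were lower (76.5 against 37.8 percent of all genes) and 3 higher (8.82 against 32.6 percent), with a median of -4.63 against -0.07. In the HG, 22 were lower (64.7 against 35.8 percent) and 5 higher (14.7 against 32.9 percent), with a median of -2.70 against -0.01. All 8 fibrillar genes were lower in both glands, at medians of -5.75 and -4.12. Of 11 mesenchymal markers, 10 were lower in each gland, at medians of -5.10 and -3.78, and the part of a smaller mesenchymal share was not tested.

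Col26a1 was at 6.85, 6.87 and 7.00 in LG mesenchyme and not well above background in adult LG, a fall of at least 983-fold (adjusted p = 9.3e-15). In the HG its difference was -7.13 ± 0.31. Col5a2 differed by -8.02 in the LG, where 1 of 2 adult arrays was well above background, and by -5.78 in the HG. Col5a1 differed by -7.52 and -5.59. The probes of Col8a2 disagreed. The representative one, well above background on no adult LG and 1 of 3 adult HG arrays, gave -8.41 and -7.72. The other gave -0.62 and -3.60. The other probe also turned the sign of adult LG against adult HG (2.72 in place of -1.0), so the size of the adult fall is not settled. Also in the LG, Col24a1 was at least 19.9-fold and Col27a1 at least 22.7-fold lower, and Col1a1 differed by -5.99. In the HG, Col24a1 was at least 12.3-fold lower. Col25a1 was lower there by all 4 of its probes. However, the fitted -6.20 comes from a probe not well above background on any adult HG array, and the others gave -3.20, -2.60 and -4.05.

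Only 3 collagens were higher in adult LG than in LG mesenchyme: Col7a1 (4.74 ± 0.33, adjusted p = 3.51e-10), Col17a1 (2.08) and Col20a1 (1.44). In the HG these were Col6a4, Col4a3, Col17a1 (2.64), Col7a1 (1.02) and Col4a4 (0.89). Embryonic epithelium was the other reference, so whole gland was set against 1 compartment, and age and cell content cannot be told apart. All 8 immune markers were higher in each adult gland (medians 3.56 in the LG and 2.49 in the HG). Endothelial markers had 3 of 10 higher and 2 lower in the LG, and 8 higher and none lower in the HG. Mesenchymal markers had 2 of 11 higher and 5 lower in each gland. Their part in the collagen differences was not tested. Adult LG was lower than LG epithelium for 23 collagens (67.6 against 38.7 percent of all genes) and higher for 8 (23.5 against 31.2 percent), but of the 8 only Col20a1 (2.91 ± 0.44) and Col7a1 (1.75 ± 0.33) were well above background, and that rule left 2 higher and 23 lower beside 24.4 and 38.6 percent of all genes. Adult HG was lower than HG epithelium for 18 (52.9 against 35.6 percent) and higher for 7 (20.6 against 34.4 percent).

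The collagens that fell most from LG epithelium to adult LG were Col26a1 (at least 40.1-fold), Col27a1 (at least 12.9-fold), Col4a6 (-4.76 ± 0.48), Col18a1 (-4.68), Col4a5 (-4.67 ± 0.24) and Col4a1 (-4.24). The other Col4a6 probe gave only -1.32. Col8a2 was called as lower too, from a probe not well above background in adult LG (-5.39), but its other probe gave 1.80. The epithelial pair on chromosome X thus stood at -1.30 and -1.23 (Col4a5) and -0.27 and -0.57 (Col4a6) in adult LG. Adult HG against HG epithelium gave -5.28 for Col18a1, at least 7.15-fold lower for Col24a1, -4.53 for Col27a1, -4.43 for Col4a6 and -4.29 for Col26a1. The Col4a6 value rests on 1 probe, since the other gave -0.46. So does that of Col25a1 (-4.55, from a probe not well above background in adult HG), whose other probes gave -0.06, -0.75 and -0.29. Col5a3, in contrast to the other type V chains, stood at 2.22, 1.47 and 1.93 in adult HG, above all HG epithelium arrays (-2.03, -0.40 and -0.66) and below HG mesenchyme (3.74, 4.27 and 3.74). Besides Col6a4 and Col4a3, adult HG was higher in Col5a3 (2.90 ± 0.36, against -2.19 for Col5a1 and -1.64 for Col5a2), Col15a1 (1.91), Col8a1 (1.43) and Col20a1 (1.32). Col8a1 was well above background on only 2 of 3 adult HG and 1 of 3 HG epithelium arrays, so its size is uncertain. The seventh, Col6a5, was not well above background in either group.

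Genes that act on collagens were described from 5 lists. Of 20 tested genes for chain folding and modification, 18 were lower and 1 higher in epithelium over the 3 tissues (median -1.21), beside 32 and 38.7 percent of all genes, led by Creb3l1 (-3.91), Colgalt2 (-3.50) and Fkbp14 (-2.69), with P3h2 (0.44), a prolyl 3-hydroxylase, the exception. By tissue, 13, 17 and 14 were lower in the LG, HG and eyelid, beside 26.5, 28.1 and 25.5 percent of all genes. Of 12 tested genes for propeptide cleavage and crosslinking, 11 were lower and none higher (median -3.37), led by the lysyl oxidase Lox (-4.69), the procollagen protease Adamts2 (-4.51) and Pcolce (-4.37). Of 11 tested fibril-associated proteins, 10 were lower and none higher (median -4.12), led by Lum (-4.75), Aspn (-4.70) and Ogn (-4.63).

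Against the same shares of all genes, 32 percent lower and 38.7 percent higher, the remaining lists were small. Of 7 partners of the basement membrane network, 5 were lower, with the nidogens Nid2 (-4.32) and Nid1 (-3.09) and Sparc (-1.22) at the low end, and 2 were higher, Agrn (1.28) and Tinagl1 (1.16). Among 7 tested collagen receptors and uptake genes, 4 were lower and 1 higher, led by Itga11 (-4.12), Ddr2 (-3.79) and Itga1 (-3.43). The higher gene was Ddr1, a receptor tyrosine kinase for collagen (1.81 in the mean, and 1.95, 1.20 and 2.28 in the LG, HG and eyelid).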

How the data were processed

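Total RNA of 23 samples was hybridised to 1-colour arrays on 3 slides. The deposited files hold a processed intensity per spot, which the authors' scanner software had background-subtracted, together with flags for background, saturation and outliers (Agilent Feature Extraction 11.0.1.1 for the 7 arrays of slide 1 and 11.5.1.1 for the others, per the file headers; the submitters' processing notes name 11.5.1.1). The deposited value table held the mean of the same intensity (log2 ratio with a median of 0) and served as an alternative.

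Outlier spots were removed (134 missing values after averaging), spots of a probe averaged, and log2 intensity minus the array's 75th percentile computed. Probes were kept when, in 1 or more groups, all arrays had a 0.5 or larger part of their spots for the probe well above background. Accessions were matched to RefSeq symbols for 27509 of 55681 probes, and each gene is represented by its kept probe of highest mean. Of 56 collagen probes 50 were kept, and 11 collagens had several. Promoter windows come from RefSeq (GRCm38.p6) for 31 of the 37 genes.

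One limma 3.58.1 model (lmFit and eBayes, R 4.3.3) held all 8 groups, with 15 contrasts and a moderated F test, after a check on simulated data. The text names up to 6 called collagens in each direction per comparison, chain partners side by side and those whose sign differs between tissues. The collagens, partner lists and marker lists were chosen with earlier results of these data known. Replicate numbers paired the embryonic samples (correlation of deviations 0.171 to 0.579 in the 9 comparisons of 2 embryonic groups, with a lowest value of 0.0663 over all 45 same-numbered pairs), since number and slide coincide there. Alternatives covered background correction, scaling, the deposited values, dim-probe filters, probe choice, replicate and slide blocks, other sets of arrays and leaving out each array.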

Additional observations from a re-analysis of the deposited data

Results flagged for a closer look

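The compartment difference (epithelium minus mesenchyme) depended on the tissue for 24 collagens by limma's moderated F test on the 3 embryonic tissues, each with an adjusted p under the threshold. The F values were highest for Col6a5 (119.9), Col24a1 (93.84), Col14a1 (78.1), Col4a1 (55.56), Col4a2 (52.65) and Col18a1 (43.82). Col6a5 and Col13a1 passed the filter on dim probes through LG mesenchyme alone, so some difference between groups was fixed in advance for them. Col4a3 passed it through adult HG alone and was well above background on 1 embryonic array, so its F rests mostly on background values. At E16.5, Col6a5 was well above background in LG mesenchyme alone and Col6a4 (37.04) in LG mesenchyme and on 2 arrays of eyelid mesenchyme, and Col14a1, Col18a1 and Col6a6 (22.36) differed in sign between tissues. Col4a5 had 28.15, Col23a1 27.51, Col13a1 23.14, Col26a1 15.21, Col4a3 14.2, Col8a1 11.87, Col7a1 11.42, Col6a3 10.15 and Col4a6 10. Of the 4 genes higher in every epithelium, Col17a1 was not called by this test (F 0.5934, adjusted p = 0.674). Values below 10 were found for Col6a1 (9.273), Col5a2 (8.647), Col1a2 (7.284), Col25a1 (7.259), Col5a1 (6.879), Col1a1 (5.96) and Col15a1 (5.735).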

How the results depend on the processing

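Of 3289 counts and gene values of the comparisons recomputed under an alternative, 3199 were classed as unchanged. For gene values this meant the same direction and side of the threshold, and for counts a value within 1.5 times of the main one. Of the rest, 81 gene values lost significance, 8 counts moved by over 1.5 times and 1 gene value changed sign. The count for HG against eyelid mesenchyme (8) became 5 under median scaling, 14 with only the groups compared, and 3 to 7 with 1 array left out. The count for adult LG against adult HG (24) became 14 with only the groups compared and 18 to 25 with 1 array left out. Col22a1 in adult LG against LG epithelium turned from 1.96 to -0.0525 under quantile normalization (adjusted p = 0.951). Among all called collagens, signs also turned in adult LG: against adult HG for Col8a1 (normexp), against LG mesenchyme for Col13a1, Col4a4 and Col6a4 (normexp; Col6a4 also with probes averaged), and against LG epithelium for Col15a1, Col24a1, Col4a4 and Col6a6 (normexp) and Col8a1 (quantile). For the other comparisons the counts with 1 array left out stayed within 1.5 times of the value given.

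In adult LG the split of calls depended on the scaling: normexp background correction gave 10 higher and 16 lower against adult HG, 8 and 22 against LG mesenchyme, and 11 and 19 against LG epithelium, and quantile normalization 3 and 21 for the last. Median scaling moved the median of all genes by -0.47, -0.37 and -0.25 in adult LG against LG epithelium, LG mesenchyme and adult HG, and by 0.23 and 0.18 in LG and HG against eyelid epithelium, and normexp moved it by 0.25, 0.25 and 0.19 in the same 3 adult LG comparisons. The cause was not tested. With the replicate number as a block, calls were gained for Col6a4 (LG against eyelid mesenchyme, 0.83, 24 calls), Col26a1 (LG against HG epithelium, -1.02, 12 calls) and Col27a1 (F test, 25 calls), Col6a1 was exchanged for Col23a1 in adult LG against LG epithelium, and no other call changed. With the slide as the block, the gains were Col6a4 and Col26a1 in the same comparisons, Col6a2 (LG against eyelid epithelium), Col4a4 (adult HG against HG epithelium) and, in the F test, Col4a4 and Col6a2, with no loss. Dim probes set the limit for Col4a3, Col6a4, Col6a5, Col8a1, Col13a1 and Col22a1.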
